A study of Mus musculus with 2 samples.

Results

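The genes described here build the endosomal sorting and recycling machinery: the Rab GTPases with genes named after them, the Vps genes, the sorting nexins, and subunits of the adaptor complexes AP-1, AP-2 and AP-3. They were chosen by symbol alone, as every gene whose name is Rab, Vps, Snx or Ap1 to Ap3 followed by set numbers and letters. The letters set for the adaptor complexes left out the alpha chains of AP-2, Ap2a1 and Ap2a2. The rule found 156 of the 32285 genes in the files, of which 152 are protein coding and 4 are antisense transcripts. A name is not always a function: Vps72 is a chromatin-complex subunit, and Rab5if is not a Rab GTPase. The cells came from tumours of MC38, a colon carcinoma line of the mouse, which had been implanted in female C57BL/6 mice and were taken on day 14. The vehicle group received vehicle and the LC427 group received LC427, a compound given here by its code name alone. Cells with CD45, the surface protein of leucocytes, were kept on beads, and 1 library per group was made with 10x Genomics 5′ chemistry. The number of mice behind a library, their age, and the dose and schedule of LC427 are not given in the sources used here.

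Endocytosed membrane proteins reach early endosomes, which are marked by Rab5 GTPases. From there a protein is either sorted back to the surface, through retromer, sorting nexins and Rab11 recycling endosomes, or passed by ESCRT complexes and Rab7 to the lysosome. Adaptor complexes select cargo into vesicles: AP-2 at the plasma membrane, AP-1 between the trans-Golgi network and endosomes, and AP-3 on the way to lysosomes and related organelles. CTLA4, the inhibitory receptor of regulatory T cells, is a well known cargo of this route: AP-2 takes it into the cell, and the BEACH protein LRBA keeps it from lysosomal breakdown. The series title names LRBA as the target, so the levels of the sorting genes in vehicle and LC427 cells bear on the machinery around it. They are RNA levels only.

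After filtering, 5025 vehicle and 6008 LC427 cells remained, with 47 cell barcodes present in both libraries. Before doublet removal, the median cell held 3560 UMIs (unique molecules counted) in vehicle and 2424.5 in LC427. Clusters named from marker genes gave 6 classes: monocyte/macrophage-like (3346 vehicle and 3908 LC427 cells), CD8-like (314 and 438), CD4/Treg-like (93 and 92), NK-like (357 and 136), conventional DC-like (94 and 212) and mature regulatory DC-like (130 and 158), where DC stands for dendritic cell. Each class carried its own defining markers in both libraries, but some also carried those of other classes. In conventional DC-like cells 15 monocyte/macrophage markers summed to 1605 CPM in vehicle and 1520 CPM in LC427. The 10 conventional DC markers summed to 1584 and 1317 CPM there. In CD8-like cells 10 CD4/Treg markers summed to 1162 and 1215 CPM, and 3 CD8 markers to 953 and 1050 CPM. With cells gated by their own marker UMIs, the conventional DC-like class held 11 vehicle and 15 LC427 cells. Not every class had the same make-up in the 2 libraries. The largest monocyte/macrophage-like cluster was led by Mmp12, Arg1 and Cxcl3 in vehicle, and by Nos2, Acod1 and Ly6i in LC427. The summed level of 15 monocyte/macrophage markers in that class was 17177 CPM in vehicle and 12252 CPM in LC427. In the CD4/Treg-like class, 54 of 93 vehicle cells were in a sub-cluster led by Lgals7 and Penk, and 68 of 92 LC427 cells in a sub-cluster led by Foxp3. In the NK-like class, a sub-cluster led by Gzmg and Gzmd held 38 vehicle and 4 LC427 cells. The part of these shifts in the results below was not tested.

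Levels are given as CPM, a gene's UMIs scaled to counts per 1000000 UMIs of the class in that library. Ratios are LC427 over vehicle. With 1 library per group no test between groups is possible and no difference has a replicate check. Every interval is a 95% interval for counting error only, and it is too narrow, because UMIs of 1 cell are not independent. A gene was measured in a class when both libraries together held at least 20 of its UMIs. A member counted as higher or lower past a ratio of 1.5 or its inverse. Barcodes with 10 to 100 UMIs, taken as empty droplets, give the level of free RNA.

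Most members had UMIs in each class: between 8 members, in monocyte/macrophage-like cells, and 31, in CD4/Treg-like cells, had none. The 156 members together stood at 6399 CPM in vehicle and 6186 CPM in LC427 in monocyte/macrophage-like cells. The lowest sums were those of NK-like cells, 3993 CPM in vehicle and 3910 CPM in LC427. Sums in the other 4 classes lay between 4622 and 6476 CPM. Among members with at least 20 CPM, the highest level fell in monocyte/macrophage-like cells for 39, in CD4/Treg-like cells for 30, in mature regulatory DC-like cells for 13, in conventional DC-like cells for 9, and in CD8-like and NK-like cells for 5 each. The CD4/Treg-like class rests on few UMIs, 254011 in vehicle and 162511 in LC427, so its place in such an order is the least certain. The classes of highest level were not counted over all genes, so the counts do not set the members apart.

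Only 2 members were at least 2-fold above every other class in both libraries at 50 CPM or more, and both marked monocyte/macrophage-like cells. Rab3il1, an exchange factor for Rab8 and Rab3 family members, stood at 86.0 CPM in vehicle and 68.2 CPM in LC427 there, and at 7.47 CPM or less in each of the other classes. Snx24, a sorting nexin, stood at 78.2 and 97.4 CPM there, at 20.7 and 17.9 CPM in conventional DC-like cells, and at 9.09 CPM or less elsewhere. Both genes were highest in this class in either library. In empty droplets Rab3il1 stood at 50.1 and 39.3 CPM, so its few UMIs in lymphoid cells were below the level of free RNA. No Rab3il1 UMI was found in CD4/Treg-like cells of either library, which allows up to 11.8 CPM in vehicle and 18.5 CPM in LC427.

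**Figure D1:**
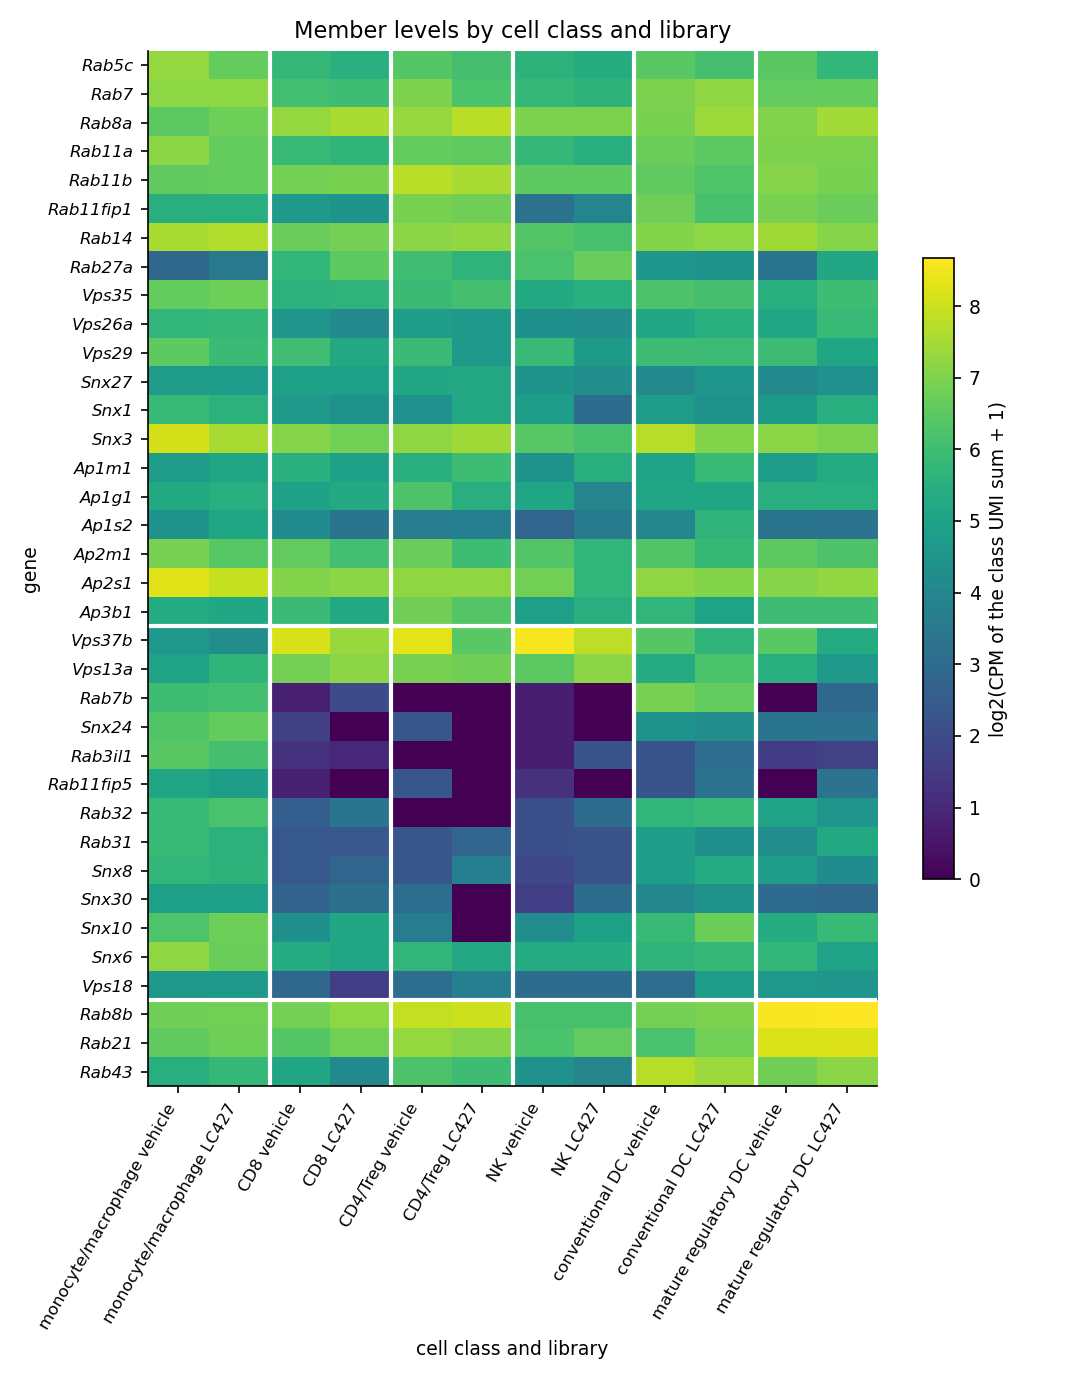
Levels of the 20 sorting genes named in every case (top block), of the members that separate lymphoid from monocyte/macrophage-like cells (middle block, with Rab27a in the top block) and of Rab8b, Rab21 and Rab43 (bottom block), as log2 of CPM plus 1, for each of the 6 classes in vehicle and LC427. Within a class the paired columns look alike, while Rab3il1 and Snx24 are brightest in the monocyte/macrophage columns and Vps37b in the lymphoid ones.

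A wider comparison, added after the values had been seen, asked which members were at least 2-fold apart between monocyte/macrophage-like cells and every one of the 3 lymphoid classes in both libraries, at 20 CPM or more. It found 11 members on the monocyte/macrophage side: Rab3il1, Snx24, Rab7b, Rab11fip5, Rab32, Rab31, Snx8, Snx30, Snx10, Snx6 and Vps18. Rab32 serves lysosome-related organelles, and Vps18 is a core subunit of the HOPS and CORVET tethers, which join endosomes to their target membranes. The lymphoid side held 3 members: Rab27a, Vps37b and Vps13a. The share of all genes past the same limits was not computed, so these counts do not set the members apart from other genes. Rab27a docks cytotoxic granules at the membrane of T and NK cells, Vps37b is a subunit of ESCRT-I, and Vps13a is a lipid transfer protein at membrane contacts.

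Dendritic classes had members of their own at the top. Rab7b, a late endosome and Golgi Rab, stood at 117 CPM in vehicle and 94.2 CPM in LC427 in conventional DC-like cells. In monocyte/macrophage-like cells Rab7b stood at 61.5 and 67.3 CPM, with intervals apart from those of the dendritic cells, and in each of the other 4 classes at 6.63 CPM or less. Rab43, a Rab known for cross-presentation by CD8α+ dendritic cells, was also highest in conventional DC-like cells, with 214 CPM in vehicle and 163 CPM in LC427. Its next class was mature regulatory DC-like, with 109 and 144 CPM, and in LC427 the intervals of these classes overlapped. Rab8b, a recycling and exocytic Rab, was highest in mature regulatory DC-like cells, with 384 CPM in vehicle and 407 CPM in LC427. CD4/Treg-like cells came next for Rab8b, with 236 and 258 CPM, and the intervals did not overlap in either library.

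Members of the general machinery differed in level between classes too, some by little and others by more. Rab7, the late endosome Rab, ranged over the classes from 53.7 to 147 CPM in vehicle and from 47.4 to 151 CPM in LC427. The intervals of neighbours in the order of its levels overlapped in at least 1 library, which does not compare the ends of that order. Its level in empty droplets, 189 and 217 CPM, was above that of every class. Vps35, the core of retromer, ranged from 38.3 to 96.5 CPM in vehicle and from 43.8 to 107 CPM in LC427. Snx27, which links retromer to PDZ-binding cargo, stayed between 16.4 and 36.9 CPM in all 6 classes of both libraries. Rab11a, the recycling endosome Rab, was lowest in NK-like cells (53.7 and 43.8 CPM) and its adaptor Rab11fip1 likewise (8.73 and 14.6 CPM). Rab11fip1 was high in CD4/Treg-like (122 and 111 CPM) and mature regulatory DC-like cells (120 and 104 CPM).

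Between the libraries, the members did not move as a block. In monocyte/macrophage-like cells 132 members were measured, and 10 were higher and 10 lower in LC427. Over all measured genes of this class 10.8% were higher and 6.29% lower, and the members' shares were both 7.58%. The members' median log2 ratio was 0.04, against 0.13 for all genes. All genes were thus shifted by 0.13 in this class, and with ratios divided by that shift 4 members were higher and 19 lower. Centred on genes of like transcript length, 4 were higher and 13 lower. Shares of all genes were not computed under centring or under the other alternative settings below. The backgrounds given here and below are for uncentred ratios of the classes as first named, and do not apply to such counts.

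The CD8-like class gave a similar picture. Of 103 members measured, 16 were higher and 15 lower, against backgrounds of 14.1% and 10.2% of all genes, and their median log2 ratio was 0.04 beside 0.07. Centred on all genes, the split was 10 higher and 18 lower, and centred on genes of like transcript length it was 11 and 18. In CD4/Treg-like cells only 49 members were measured, and 5 were higher and 11 lower, against backgrounds of 13.9% and 18.0%. Their median was -0.13, beside -0.04 for all genes. With a minimum of 2000 UMIs a cell, 13 of 92 measured members were higher and 8 lower. Cells were clustered and named again under that minimum, and this class then held 118 vehicle and 124 LC427 cells. The values under it thus come from another set of cells, not only from deeper ones. Centring the 49 members on genes of like transcript length gave 5 higher and 9 lower.

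In NK-like cells 86 members were measured, with 14 higher and 17 lower against backgrounds of 22.9% and 17.2%. The median of the members was 0.00 and that of all genes 0.12, and with that shift taken out the split became 9 higher and 20 lower, or 10 and 19 when centred on genes of like transcript length. Without the sub-cluster led by Gzmg and Gzmd it was 6 higher and 16 lower. The split turned when cells were gated by their own marker UMIs, with 21 of 93 measured members higher and 6 lower. Mature regulatory DC-like cells had 78 members measured, 10 higher and 14 lower, against backgrounds of 17.9% and 10.3%, with a median of 0.01 beside 0.09. This split also turned with the setting: it was 13 and 8 with doublets kept, 11 and 11 with a minimum of 2000 UMIs a cell, and 7 and 16 centred on genes of like transcript length.

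In conventional DC-like cells 92 members were measured, 21 higher and 7 lower, against backgrounds of 16.8% and 10.9%, with a median of 0.12 beside 0.06. The members' shares were 22.8% and 7.61%. This split did not hold with a minimum of 2000 UMIs a cell, where 6 of 45 measured members were higher and 7 lower. Cells were clustered and named again under that minimum, and this class then held 38 vehicle and 36 LC427 cells. The split was 16 and 10 when centred on genes of like transcript length. The 9 markers of mature regulatory dendritic cells summed to 531 CPM in vehicle and 318 CPM in LC427 in this class. Among them Ccl22 had a ratio of 0.432 (0.325 to 0.570) and Ccr7 one of 0.372 (0.233 to 0.583), and their part in the members' values was not tested.

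**Figure D2:**
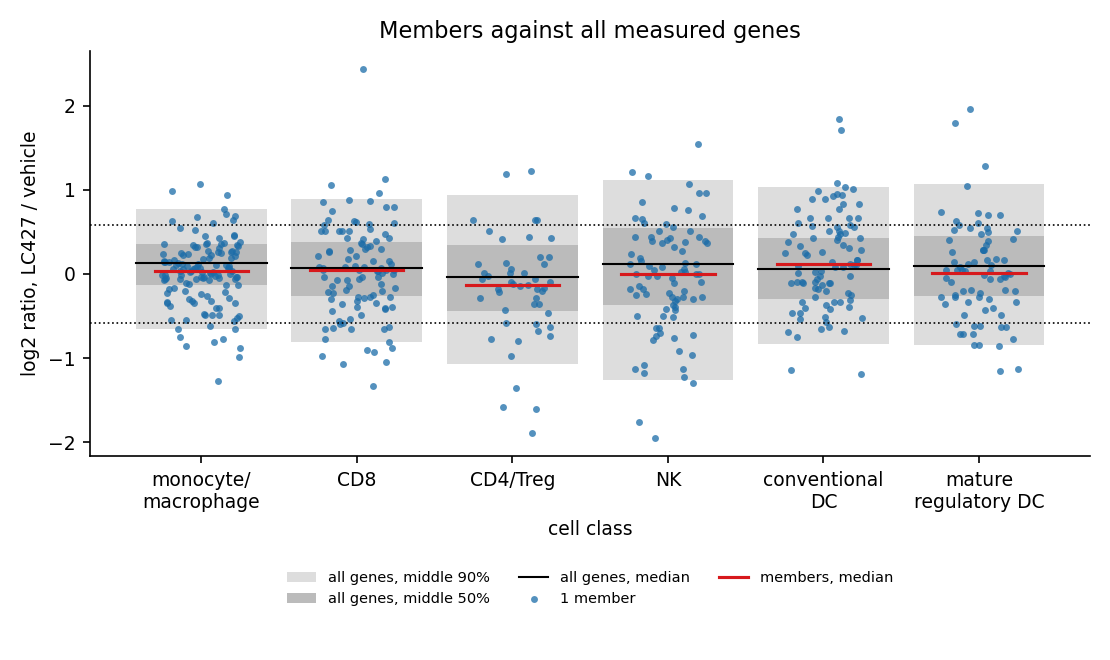
Log2 ratios of LC427 over vehicle for each measured member (points) in the 6 classes, over the spread of all measured genes of the class (grey bands, with the black line at their median and the red line at the members' median). The dotted lines mark a ratio of 1.5 and its inverse. Most members lie within the bands, with medians from -0.13 to 0.12.

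Ratios differed with transcript length in several classes. In monocyte/macrophage-like cells the median log2 ratio of members was -0.28 for genes with short transcripts, 0.09 for those of middle length and 0.12 for long ones, with all measured genes cut into 3 equal length classes. The same classes of all genes gave 0.01, 0.15 and 0.20. In CD8-like cells the members' medians were -0.15, -0.11 and 0.16, and those of all genes 0.00 to 2 decimals, 0.13 and 0.08. In NK-like cells the members' medians were -0.28, 0.05 and 0.00, and in mature regulatory DC-like cells -0.27, 0.15 and 0.03. The order was the other way for members in CD4/Treg-like cells, with -0.06, -0.13 and -0.16, and conventional DC-like cells gave 0.03, 0.25 and 0.25. The part of length in the results was not tested.

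Among early endosome Rabs, Rab5c was lower in monocyte/macrophage-like cells of LC427. With Vps29, it was one of a pair of members named by the rule for differences in that class. Rab5c, one of the Rab5 GTPases that drive early endosome fusion, stood at 155 CPM in vehicle and 98.7 CPM after LC427, and the ratio was 0.635 (0.591 to 0.681) from 2367 and 1148 UMIs. It was lower in LC427 in 8 of the 8 monocyte/macrophage-like clusters with at least 100 cells in each library, with ratios from 0.497 to 0.797. Relative to all genes of the class its log2 ratio was -0.78. In empty droplets it stood at 110 and 92.0 CPM, a ratio of 0.835. In the other 5 classes the ratio of Rab5c lay between 0.608 and 0.841, each with an interval that included 1. Its paralogue Rab5a was level in this class, with 46.0 and 44.3 CPM. Rab20, a phagosome and early endosome Rab of macrophages, stood at 27.3 CPM in vehicle and 11.3 CPM after LC427, and the ratio was 0.415 (0.339 to 0.506). It is below the level set for named genes and was picked out after its values were seen.

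Rab5c (ENSMUSG00000019173) lies on the minus strand of chr11:100715009-100738215 in GRCm38. Its promoter is shown because its ratio had the narrowest interval of the members named for a difference. The 250 bases before its RefSeq start, at chr11:100738216-100738465 on the minus strand of GRCm38.p6, overlap no annotated exon. Capitals mark matches, on either strand, to the GC box GGGCGG and the CCAAT box.
Rab5c: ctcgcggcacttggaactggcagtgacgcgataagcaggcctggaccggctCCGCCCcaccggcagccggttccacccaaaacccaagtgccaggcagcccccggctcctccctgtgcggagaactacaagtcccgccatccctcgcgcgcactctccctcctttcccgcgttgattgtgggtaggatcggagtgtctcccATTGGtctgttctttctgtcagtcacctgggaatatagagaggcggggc
The window holds 1 GC box and 1 CCAAT box. Over the 32851 promoter windows of this length in the RefSeq table, 32.7% held the GC box and 33.8% the CCAAT box. A start was listed for 117 of the 156 members. Of the members' 145 windows, 64.1% held the GC box and 33.1% the CCAAT box. Shares in all windows and in the members' windows were 6.02% and 12.4% for the E-box CACGTG, 1.55% and 2.76% for the cyclic AMP response element TGACGTCA, and 2.88% and 8.28% for the ETS element CCGGAAGT. The members' windows were richer in G and C, with a median of 61.2% against 52.4%.

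A motif known for lysosomal genes, the CLEAR element bound by TFEB, here the E-box with GT before it and AC after it, was found in the windows of 5 of the 117 members with a listed start, or 4.27%. Of the 17492 protein-coding genes with a window, 62 held it, or 0.354%. The 5 members were Rab5a and Rab21 of the early endosome, Vps26a of retromer, and Vps16 and Vps33a, partners in the core of HOPS and CORVET. The element is shown in capitals for the 3 members where it overlaps no annotated exon, with 15 bases on either side.
Rab5a, chr17:53479122-53479161, plus strand: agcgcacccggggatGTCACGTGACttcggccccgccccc
Rab21, chr10:115315599-115315638, minus strand: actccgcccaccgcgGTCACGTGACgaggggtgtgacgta
Vps26a, chr10:62486965-62487004, minus strand: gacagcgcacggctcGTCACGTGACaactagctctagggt
The coordinates are of GRCm38.p6. In monocyte/macrophage-like cells the ratios of these 5 genes were 0.965 for Rab5a, 1.13 for Rab21, 1.06 for Vps26a, 1.36 for Vps16 and 1.11 for Vps33a. None passed 1.5 in this class, and a match describes letters, not a bound site.

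Of the 6 retromer and retriever members, all measured in monocyte/macrophage-like cells, Vps29 alone was past the limit there. Of all genes in this class, 6.29% were lower. Vps29, a subunit shared by retromer and retriever, stood at 90.5 CPM in vehicle and 59.0 CPM after LC427 in monocyte/macrophage-like cells, and the ratio was 0.652 (0.595 to 0.716). It was lower in 8 of 8 clusters, with ratios from 0.529 to 0.844. Its retromer partners were not lower there: Vps35 stood at 96.5 and 107 CPM, and Vps26a at 51.2 and 54.2 CPM. The ratio of Vps29 was 0.585 (0.388 to 0.867) in CD8-like cells, 0.458 (0.179 to 0.986) in NK-like cells and 0.553 (0.279 to 1.05) in mature regulatory DC-like cells. In conventional DC-like cells it was level, at 62.1 and 61.3 CPM, and in empty droplets the ratio was 1.10. The NK-like value rests on 7 LC427 UMIs. Vps29 was not measured in CD4/Treg-like cells, with 15 and 4 UMIs.

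**Figure D3:**
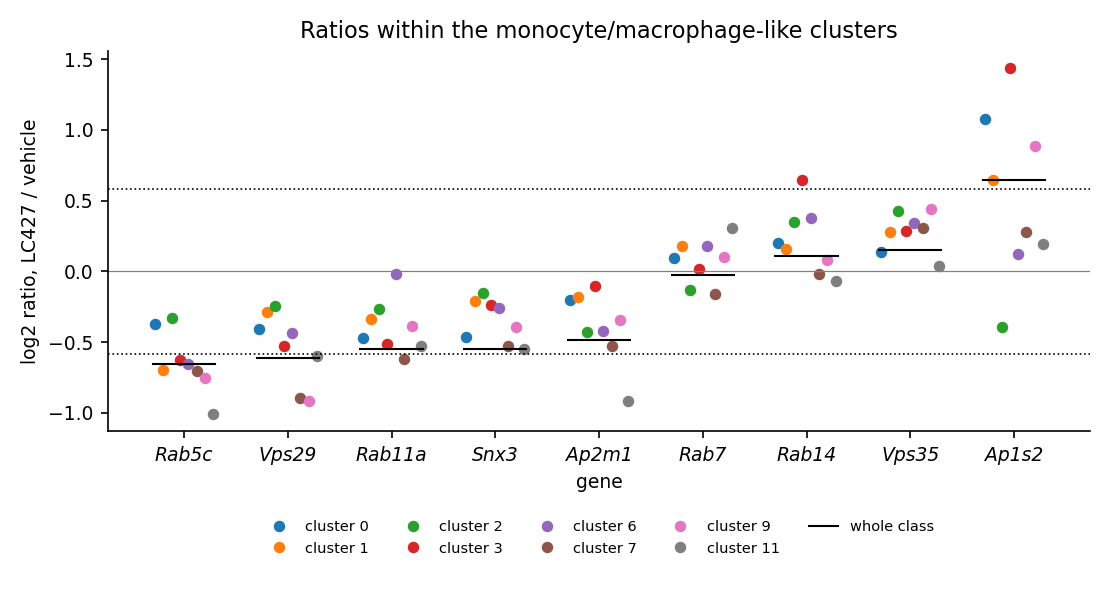
Log2 ratios of LC427 over vehicle for 9 members within the 8 monocyte/macrophage-like clusters with at least 100 cells in each library (coloured points) and in the whole class (black bars). The dotted lines mark a ratio of 1.5 and its inverse. Rab5c, Vps29, Rab11a, Snx3 and Ap2m1 lie below 0 in every cluster shown, and Vps35 above it.

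The recycling Rabs and Rab11 adaptors did not share a direction. In monocyte/macrophage-like cells 14 of 17 were measured, 2 higher and 2 lower, where 10.8% of all genes were higher and 6.29% lower. Their sum was 899 CPM in vehicle and 900 CPM in LC427. Rab11a stood at 141 and 96.4 CPM, a ratio of 0.683 (0.635 to 0.734), short of the limit. It was lower in 8 of 8 clusters, with ratios from 0.651 to 0.987. Its paralogue Rab11b was level at 93.1 and 97.7 CPM, and Rab14, which serves recycling between endosomes and the Golgi, at 190 and 204 CPM. Rab8a stood higher in LC427 in all 6 classes, with ratios from 1.01 to 1.40, and none passed 1.5. In empty droplets the Rab8a ratio was 1.28. In conventional DC-like cells Rab11fip1 stood at 111 and 70.2 CPM, a ratio of 0.633 (0.422 to 0.944).

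Of the late endosome Rabs, Rab7 was level in monocyte/macrophage-like cells, at 147 and 145 CPM. It was level in CD8-like cells too, at 64.9 and 62.0 CPM. In CD4/Treg-like cells it stood at 126 and 73.8 CPM, a ratio of 0.586 (0.275 to 1.17) resting on 32 and 12 UMIs, so a ratio of 1 lies within counting error.

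The granule Rab of killer cells was higher in CD8-like cells of the LC427 library. Rab27a (chr9:73044854-73097629, plus strand) stood at 52.1 CPM in vehicle and 90.4 CPM after LC427, and the ratio was 1.74 (1.26 to 2.40) from 73 and 89 UMIs. The ratio was 1.80 in the sub-cluster led by Cd8a and Cd8b1, and 1.73 in the sub-cluster led by the cell cycle genes Cenpf and Ube2c. In NK-like cells, which held the highest level, it stood at 71.9 and 102 CPM, with a ratio of 1.42 (0.902 to 2.17). CD4/Treg-like levels were 63.0 and 49.2 CPM, and those of conventional DC-like cells 22.6 and 20.9 CPM. Mature regulatory DC-like cells went from 5 to 16 UMIs of Rab27a, a ratio of 3.89 (1.36 to 13.6), which is below the level set for named genes. The summed level of the 9 T cell markers in that class was 216 CPM in vehicle and 462 CPM in LC427, and its part in this value was not tested. Monocyte/macrophage-like cells held little Rab27a, 6.37 and 10.3 CPM, but their ratio was also past the limit, at 1.62 (1.23 to 2.14). It was above 1 in 3 of the 4 clusters where it was measured, with ratios from 0.405 to 2.20. In empty droplets Rab27a stood at 15.4 and 18.5 CPM, a ratio of 1.20, so the monocyte/macrophage-like levels were below those of free RNA. The T cell markers summed to 15.6 and 27.6 CPM in monocyte/macrophage-like cells, and their part was not tested.

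A difference that recurred over the lymphoid classes was that of Vps37b (ENSMUSG00000066278, chr5:124004641-124032270, minus strand). Vps37b is a subunit of ESCRT-I, which sorts ubiquitinated receptors into vesicles bound for the lysosome. In CD4/Treg-like cells it stood at 319 CPM in vehicle and 86.1 CPM after LC427, and the ratio was 0.270 (0.141 to 0.480) from 81 and 14 UMIs. In CD8-like cells it stood at 284 and 162 CPM, a ratio of 0.569 (0.470 to 0.685), and in NK-like cells at 371 and 222 CPM, a ratio of 0.600 (0.453 to 0.783). In all 3 lymphoid classes the vehicle library was thus higher, with intervals that did not reach 1.

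Vps37b was lower within the lymphoid sub-clusters too. The ratio was 0.556 and 0.559 in the CD8-like sub-clusters led by Cd8a and by Cenpf. It was 0.228 in the Foxp3 sub-cluster, from 60 and 11 UMIs, and 0.342 in the Lgals7 and Penk sub-cluster, from 21 and 3 UMIs. In NK-like cells without the granzyme-rich sub-cluster it was 0.40 (0.302 to 0.523), at 580 and 232 CPM.

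Both dendritic classes also had less Vps37b in LC427. The levels were 82.8 and 49.3 CPM in conventional DC-like cells, a ratio of 0.596 (0.368 to 0.957), and 87.3 and 39.8 CPM in mature regulatory DC-like cells, a ratio of 0.456 (0.250 to 0.799). Monocyte/macrophage-like cells had little of it, 23.5 and 18.6 CPM, with a ratio of 0.790 that was below 1 in 4 of 8 clusters. In empty droplets Vps37b stood at 73.4 and 52.4 CPM, a ratio of 0.714. The dendritic levels lie near those of empty droplets, and the lymphoid vehicle levels well above them.

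**Figure D4:**
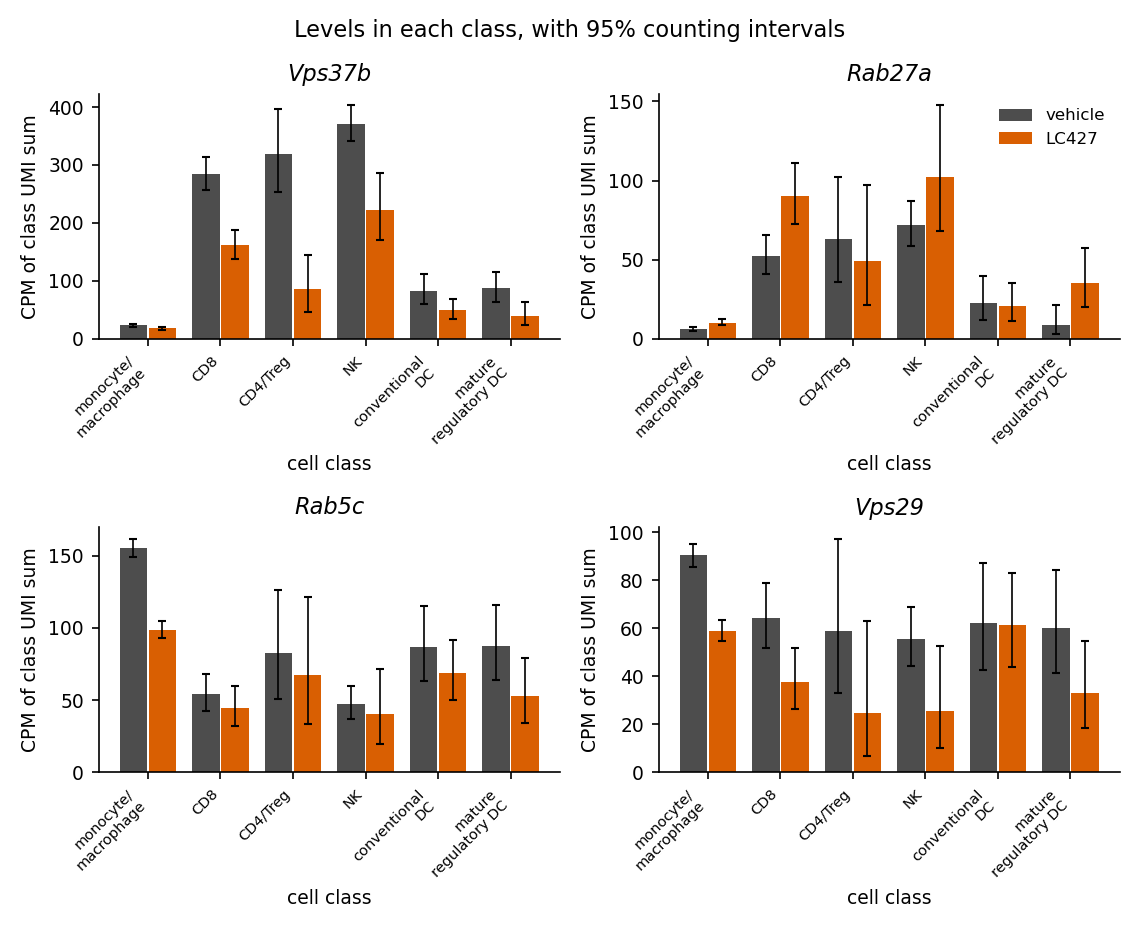
CPM of Vps37b, Rab27a, Rab5c and Vps29 in the 6 classes of the vehicle (grey) and LC427 (orange) libraries, with 95% counting intervals as error bars. The vehicle bar of Vps37b is the higher one in all classes, with the tallest bar, 371 CPM, in NK-like cells, while Rab5c and Vps29 are highest in vehicle monocyte/macrophage-like cells, at 155 and 90.5 CPM.

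A second ESCRT-I subunit, Vps28, was lower in some of the same classes. It stood at 81.3 CPM in vehicle and 42.7 CPM after LC427 in CD8-like cells, and the ratio was 0.525 (0.359 to 0.753). In mature regulatory DC-like cells it stood at 83.6 and 46.4 CPM, a ratio of 0.555 (0.315 to 0.949). Its ratio in the other 4 classes lay between 0.644 and 0.775, and in empty droplets at 1.05. In CD8-like cells 7 of 9 members of the ESCRT and Vps4 group were measured. The 2 lower ones were Vps37b and Vps28, and 1 other member was higher. Of all genes in that class, 10.2% were lower and 14.1% higher.

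Of the ER and Golgi Rabs, 2 of 7 measured were lower in CD8-like cells and 3 of 6 in CD4/Treg-like cells, and none was higher in either. Of all genes, 10.2% and 18.0% were lower in these classes. Rab1b, which acts between the endoplasmic reticulum and the Golgi, stood at 69.9 and 35.6 CPM in CD8-like cells, a ratio of 0.509 (0.335 to 0.755). The CD4/Treg-like levels were 110 and 36.9 CPM, with 28 and 6 UMIs and a ratio of 0.335 (0.113 to 0.824), and the log2 ratio was -0.21 with a minimum of 2000 UMIs a cell. Rab2a, of the same route, stood at 181 and 92.3 CPM in CD4/Treg-like cells, a ratio of 0.510 (0.264 to 0.930), but with that minimum its log2 ratio was 0.18. Rab10, a Rab of exocytic and recycling routes, was lower in the same class, with a ratio of 0.660 (0.365 to 1.15). Rab1b and Rab2a were level in monocyte/macrophage-like cells, with ratios of 1.04 and 1.07.

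Tethering complexes differed between classes and stood at low levels. Of the GARP and EARP tethers, which receive vesicles from endosomes, 5 of 5 were measured in CD8-like cells, 3 higher and 1 lower, where 14.1% of all genes were higher. In conventional DC-like cells, with 16.8% of all genes higher, 3 of 5 measured were higher and none lower. NK-like cells had none higher and 1 lower of 4, and mature regulatory DC-like cells 1 higher and 2 lower of 4. Vps54, the GARP-specific subunit, stood at 49.9 and 77.2 CPM in CD8-like cells, a ratio of 1.55 (1.10 to 2.17), but empty droplets gave a Vps54 ratio of 1.70. Of the HOPS, CORVET and CHEVI tethers, 4 of 5 measured were higher in conventional DC-like cells: Vps11, Vps16, Vps18 and Vps41, all below 50 CPM. Vps18 there stood at 7.53 and 26.9 CPM, from 4 and 18 UMIs. The NK-like class had 1 of 5 measured higher and 2 lower, and mature regulatory DC-like cells 1 of 4 higher and 1 lower. Of all genes, 22.9% were higher and 17.2% lower in NK-like cells, and 17.9% and 10.3% in mature regulatory DC-like cells.

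Of the 4 Vps13 lipid transfer proteins, 1 was higher in monocyte/macrophage-like, CD4/Treg-like and conventional DC-like cells each, and none in CD8-like cells, with 3 measured in CD4/Treg-like cells and 4 in the others. The NK-like class had 2 higher and 1 lower, and mature regulatory DC-like cells had 2 of 3 measured lower, Vps13a and Vps13d, and none higher. Of all genes, 10.8% were higher in monocyte/macrophage-like, 13.9% in CD4/Treg-like, 16.8% in conventional DC-like and 14.1% in CD8-like cells. In NK-like cells 22.9% of all genes were higher and 17.2% lower, and 10.3% were lower in mature regulatory DC-like cells. Vps13a stood at 30.9 CPM in vehicle and 50.5 CPM after LC427 in monocyte/macrophage-like cells, and the ratio was 1.63 (1.44 to 1.85). It was higher in 8 of 8 clusters. In NK-like cells it stood at 89.4 and 142 CPM, a ratio of 1.59 (1.08 to 2.29), and in conventional DC-like cells at 39.5 and 73.2 CPM, a ratio of 1.85 (1.09 to 3.25). Without the granzyme-rich NK sub-cluster the NK-like ratio was 1.31 (0.879 to 1.91). In mature regulatory DC-like cells the order was the other way, 43.6 and 24.3 CPM, with an interval from 0.247 to 1.18. Empty droplets gave 46.6 and 63.8 CPM of Vps13a, a ratio of 1.37, so the monocyte/macrophage-like levels were below those of free RNA. Vps13c, a relative on late endosomes and lysosomes, stood at 51.2 and 117 CPM in CD4/Treg-like cells, a ratio of 2.28 (1.07 to 5.03) resting on 13 and 19 UMIs. With cells gated by their own marker UMIs, its log2 ratio was -0.45, from 11 and 7 UMIs.

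The adaptor complexes had no order that held over the classes. The median log2 ratio of the 3 AP-2 members was -0.35 in monocyte/macrophage-like, -0.07 in CD8-like, -0.02 in CD4/Treg-like, -0.65 in NK-like, -0.18 in conventional DC-like and 0.16 in mature regulatory DC-like cells. These medians do not include the alpha chains. Of those, Ap2a2 had a ratio of 2.30 (1.38 to 3.73) in NK-like and 2.43 (1.32 to 4.64) in mature regulatory DC-like cells. Ap2a1 had a ratio of 0.650 (0.238 to 1.73) in conventional DC-like cells. The AP-1 median was 0.10 in monocyte/macrophage-like cells, -0.40 in CD8-like cells and -0.80 in CD4/Treg-like cells, where 3 of 8 members were measured. Ap2m1, the medium chain of AP-2 that binds tyrosine sorting motifs such as that of CTLA4, stood at 119 and 84.8 CPM in monocyte/macrophage-like cells, a ratio of 0.713 (0.659 to 0.771). Its ratio lay between 0.601 and 0.827 in the other 5 classes, and at 0.732 in empty droplets. Ap2s1, the small chain, stood at 308 and 242 CPM in monocyte/macrophage-like cells, a ratio of 0.785. The Ap2s1 ratio was 0.458 in NK-like cells. Without the granzyme-rich sub-cluster it was 0.354 (0.164 to 0.680), from 93 and 10 UMIs. In the remaining classes the Ap2s1 ratio lay between 0.884 and 1.12, and in empty droplets at 0.885.

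AP-1 was mixed. Ap1m1, the medium chain of AP-1, stood at 32.0 and 56.8 CPM in conventional DC-like cells, a ratio of 1.78 (0.978 to 3.36). The small chain Ap1s1 stood at 74.8 and 24.6 CPM in CD4/Treg-like cells, a ratio of 0.329 resting on 19 and 4 UMIs, but its log2 ratio was 0.19 with a minimum of 2000 UMIs a cell. The paralogous small chain Ap1s2 stood at 21.1 and 33.1 CPM in monocyte/macrophage-like cells, a ratio of 1.56. These levels were below those of empty droplets in both libraries, where the Ap1s2 ratio was 1.31. The Ap1s2 ratio was 3.28 in conventional DC-like, 0.534 in CD8-like and 0.973 in mature regulatory DC-like cells. In NK-like cells it was 1.81. Without the granzyme-rich sub-cluster it was 0.822, from 8 and 2 UMIs, too few to count as measured. Ap1g1, the gamma chain, was within 1.5-fold in 4 classes and lower in CD4/Treg-like and NK-like cells, at ratios of 0.576 and 0.426. These rest on few UMIs. The CD4/Treg-like sub-clusters held 9 and 6 (Foxp3) and 10 and 1 (Lgals7 and Penk). Without the granzyme-rich sub-cluster, the NK-like ratio was 0.387 (0.0997 to 1.08), from 34 and 4 UMIs. Of AP-3, which routes cargo to lysosomes and cytotoxic granules, Ap3b1 stood at 59.2 and 37.6 CPM in CD8-like cells, a ratio of 0.635 (0.419 to 0.946). Empty droplets gave 44.4 and 47.4 CPM of Ap3b1, above the CD8-like level in LC427. The Ap3b1 ratio was 1.51 in NK-like and 0.618 in conventional DC-like cells. It was 0.726 in CD4/Treg-like, 0.913 in monocyte/macrophage-like and 1.03 in mature regulatory DC-like cells.

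Sorting nexins were within 1.5-fold in most cases. All 12 SNX-BAR members, which bend endosomal tubules, were measured in monocyte/macrophage-like cells, and none passed the limit. There, 10.8% of all genes were higher and 6.29% lower. Snx3, a retromer cargo adaptor, stood at 273 and 187 CPM there, a ratio of 0.684 (0.649 to 0.721), and was lower in 8 of 8 clusters. In conventional DC-like cells Snx3 stood at 213 and 133 CPM, a ratio of 0.626 (0.469 to 0.833). Empty droplets gave a ratio of 1.12 for Snx3. In CD4/Treg-like cells Snx20, a sorting nexin of leucocytes, stood at 55.1 and 129 CPM, a ratio of 2.34 (1.14 to 4.98). In the Foxp3 sub-cluster it was 3.10, from 8 and 20 UMIs, while with each library clustered alone the log2 ratio was -0.17. Snx1, an SNX-BAR member, stood at 57.9 and 46.1 CPM in monocyte/macrophage-like cells, a ratio of 0.797 (0.714 to 0.888). Its ratio was 0.259 (0.0303 to 0.994) in NK-like cells, from 42 and 2 UMIs, and 1.65 (0.785 to 3.56) in mature regulatory DC-like cells, from 14 and 19 UMIs. Snx9, a sorting nexin of endocytosis, had 22 UMIs in each library in CD4/Treg-like cells, a ratio of 1.56 (0.826 to 2.96) and a log2 ratio of -0.06 with a minimum of 2000 UMIs a cell.

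The remaining members named by the rule had no single role in common. In CD8-like cells Rab24, a Rab linked to autophagy, stood at 46.4 and 71.1 CPM, a ratio of 1.53 (1.08 to 2.18), and empty droplets gave 1.52. Rab5if, which is no Rab, stood at 147 and 64.3 CPM in conventional DC-like cells, a ratio of 0.438 (0.295 to 0.643), and at 92.7 and 59.7 CPM in mature regulatory DC-like cells, a ratio of 0.644 (0.388 to 1.05). Rab6a, a Golgi Rab, stood at 60.2 and 38.9 CPM in conventional DC-like cells, a ratio of 0.645 (0.370 to 1.12), and with gated cells its log2 ratio was 0.98 from 2 and 4 UMIs, too few to count as measured. Rab5a stood at 70.9 and 111 CPM in CD4/Treg-like cells, a ratio of 1.56 (0.767 to 3.18).

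**Figure D5:**
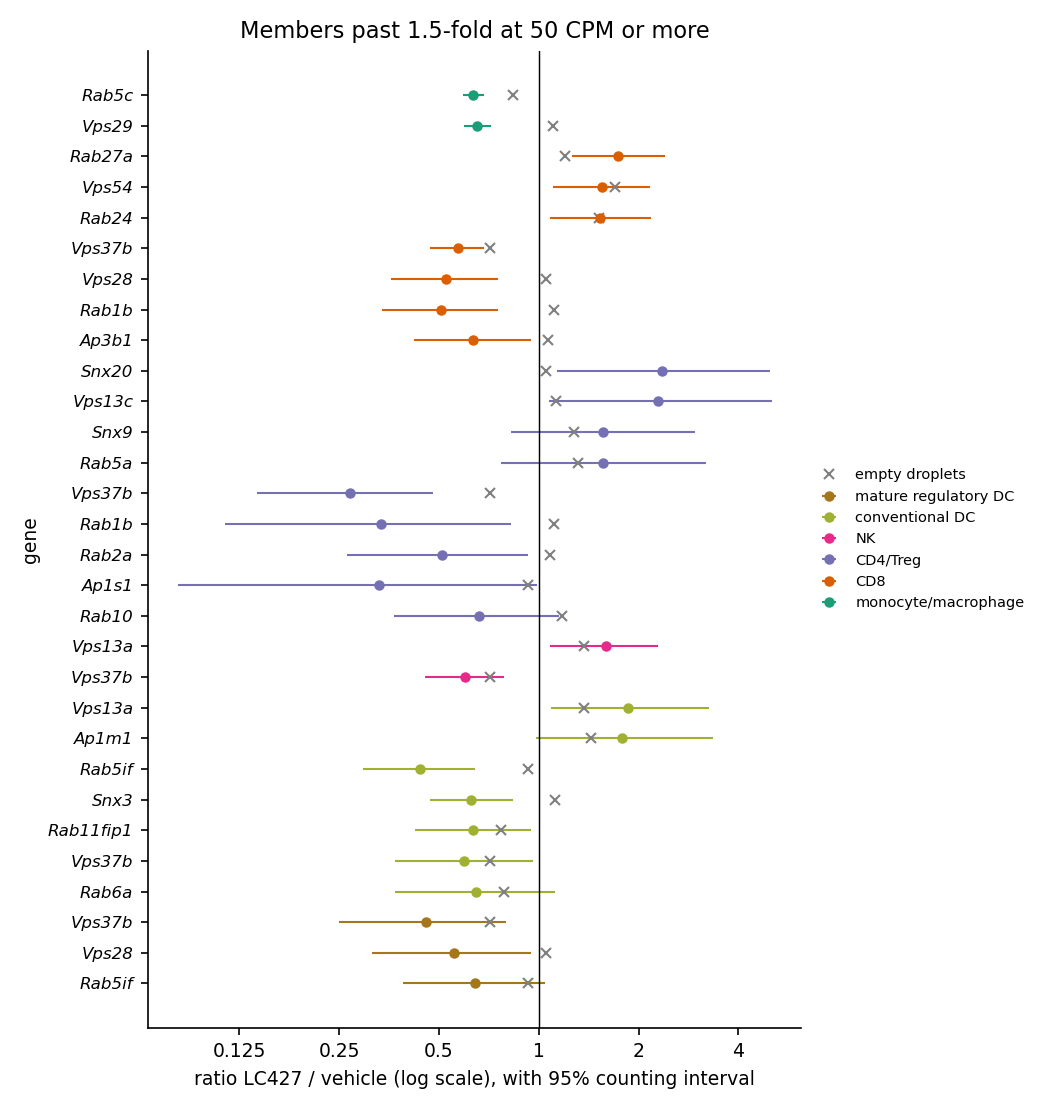
Ratios of LC427 over vehicle, on a log scale, for the members past 1.5-fold that had at least 50 CPM in 1 library and stood no lower than empty droplets, by class (colours), with 95% counting intervals. Crosses give the ratio of the same gene in empty droplets. Rab5c and Vps29 have the narrowest intervals, and Vps37b recurs in 5 classes, at ratios from 0.270 to 0.600.

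Around the members, 123 further genes of the same pathways were read with the same limits: other adaptor and clathrin genes, commander and WASH complexes, the rest of ESCRT, Rab regulators, endosomal SNAREs, BEACH proteins with their cargo, and phosphoinositide genes. In monocyte/macrophage-like cells 119 were measured, 8 higher and 4 lower. In CD8-like cells 12 of 103 were higher and 7 lower, and in CD4/Treg-like cells 5 of 45 were higher and 6 lower. In NK-like, conventional DC-like and mature regulatory DC-like cells, 17 of 92, 10 of 85 and 17 of 78 were higher, and 12, 15 and 6 were lower. Of these 12 shares, 10 lay below the shares of all genes given above. The exceptions were the lower genes in conventional DC-like cells, 17.6% against 10.9%, and the higher genes in mature regulatory DC-like cells, 21.8% against 17.9%.

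Lrba and Ctla4 themselves were within 1.5-fold in both T cell classes. Lrba, in CD4/Treg-like cells, stood at 102 CPM in vehicle and 148 CPM after LC427, and the ratio was 1.44 (0.793 to 2.61) from 26 and 24 UMIs. Ctla4 stood at 1016 and 1052 CPM there, a ratio of 1.04 (0.849 to 1.26). Ctla4 was 1 of the 10 markers used to name that class, so its level there is not independent of the naming. In CD8-like cells Lrba stood at 36.4 and 40.6 CPM, and Ctla4 at 265 and 206 CPM, a ratio of 0.779 (0.653 to 0.927). In the other 4 classes both genes had ratios above and below 1. The Lrba ratio was 0.530 (0.275 to 0.998) in conventional DC-like, 0.603 (0.156 to 1.68) in NK-like and 2.43 (0.919 to 7.12) in mature regulatory DC-like cells, and in monocyte/macrophage-like cells it was 1.21. The Ctla4 ratio was 2.40 (1.43 to 4.13) in monocyte/macrophage-like cells, at 1.58 and 3.78 CPM, and 2.93 (1.63 to 5.51) in mature regulatory DC-like cells, at 30.9 and 90.6 CPM. It was 0.653 (0.383 to 1.05) in NK-like cells and 0.794 in conventional DC-like cells. T cell markers were also higher in LC427 in monocyte/macrophage-like cells, at 15.6 and 27.6 CPM, and in mature regulatory DC-like cells, as given above, and their part was not tested. RNA counts do not measure CTLA4 protein.

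A partner of Rab7 recurred among the pathway genes. Ccz1, a subunit of the exchange factor that loads Rab7 on late endosomes, stood at 42.7 and 67.8 CPM in monocyte/macrophage-like cells, a ratio of 1.59 (1.43 to 1.76). In CD8-like cells it stood at 35.0 and 66.0 CPM, a ratio of 1.89 (1.28 to 2.80), and in mature regulatory DC-like cells at 43.6 and 79.6 CPM, a ratio of 1.82 (1.06 to 3.20). Sorl1, a sorting receptor for retromer, stood at 9.13 and 24.0 CPM in monocyte/macrophage-like cells, a ratio of 2.63 (2.14 to 3.24). Both genes were named after their values were seen.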

How the data were processed

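UMI counts came from unfiltered count matrices that the authors deposited, 1 per library, over 32285 genes. Cell Ranger 3.0.1, Seurat 3 and GRCm38 (mm10) are listed in the submitters' processing notes. A newer Cell Ranger, version 4, wrote the count matrices per the file headers, and which of the versions applies is uncertain. The library totals were 33711726 UMIs for vehicle and 28732435 for LC427, and groups were taken from the treatment labels. Barcodes with at least 1000 UMIs, 400 genes and at most 10% mitochondrial UMIs were cells. Scrublet (scanpy 1.11.5) found 0 doublets in either library, which was read as a failure of its automatic cut. Barcodes with the top scores were dropped instead, at a rate of 0.8% for each 1000 cells, which removed 220 from vehicle and 320 from LC427.

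Both libraries were clustered together without integration (2000 variable genes without the members, Lrba and Ctla4, 30 principal components, 20 neighbours, Leiden resolution 1 in leidenalg 0.10.2). T and NK clusters were clustered again, and the sub-clusters were named by comparing the scores of their marker lists. Ctla4 was left out of the variable genes but stayed among the CD4/Treg markers. Clusters were named where 3 or more markers of a class were each seen in 10% of cells. This naming rule was written after the cells had been seen. Clusters of mixed T and myeloid cells, unresolved T cells, plasmacytoid cells and unnamed clusters were left out.

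UMIs were summed per class and library. CPM have exact Poisson intervals and ratios exact conditional binomial intervals, both for counting error only, and a count of 0 stood at 3 counts. The self-test on simulated CD8-like counts over 7868 genes found 98% of changed genes past the limit, with 12.5% of unchanged genes past it too. The changed genes were given a fold larger than the limit and had more UMIs than the minimum for a measured gene. The 98% therefore does not apply to genes with fewer UMIs or smaller folds. Named genes had at least 20 UMIs, at least 50 CPM and no less than empty droplets in the higher library, and a ratio past 1.5. Ranking used the interval bound closest to 1, with at most 10 in each direction for monocyte/macrophage-like and CD8-like cells and 5 elsewhere. A set of 20 sorting genes, Lrba and Ctla4 were named in every case. The members and lists were chosen with earlier results of these data known. Gene positions are from GENCODE M21 and promoter windows from RefSeq (GRCm38.p6), searched on both strands for 6 motifs. Members' windows on chromosome 18 were left out of the motif counts. Alternatives were a minimum of 2000 UMIs a cell, doublets kept, cells gated by their own UMIs, resolution 0.5, members kept among variable genes, separate clustering, 50 UMIs per gene and centring on all genes, with those added after seeing the data named as such.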

Additional observations from a re-analysis of the deposited data

How the results depend on the processing

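No paired analysis was possible because each group has 1 library. The 12 counts of members past 1.5-fold were recomputed under each alternative, which gave 112 values, and 86 of these stayed within 1.5 times of the reported count. Shares of all genes were not computed under the alternatives, so these counts have no background beside them. With 50 UMIs per gene, higher and lower members numbered 0 and 3 in CD4/Treg-like, 6 and 9 in CD8-like, 5 and 11 in NK-like and 0 and 4 in mature regulatory DC-like cells, and 5 were higher in conventional DC-like cells. With cells gated by their own marker UMIs, 6 were higher in monocyte/macrophage-like cells, 6 lower in NK-like cells against 21 higher, and 0 higher and 0 lower in conventional DC-like cells, where 1 member was measured. With doublets kept, 3 were higher and 7 lower in CD4/Treg-like cells, and 8 lower in mature regulatory DC-like cells against 13 higher. A minimum of 2000 UMIs, with cells clustered and named again, gave 13 higher in CD4/Treg-like, 6 in conventional DC-like and 6 in monocyte/macrophage-like cells. Dividing by the median ratio of all genes gave 10 higher in CD8-like and 9 in NK-like cells, and 4 higher and 19 lower in monocyte/macrophage-like cells. Among alternatives chosen after seeing the data, length centring left 4 higher in monocyte/macrophage-like cells, the Foxp3 sub-cluster alone gave 5 lower, and NK-like cells without the granzyme-rich sub-cluster gave 6 higher. Of 30 log2 ratios of named members, 24 kept their direction throughout. At 2000 UMIs those of CD4/Treg-like Snx9, Rab2a and Ap1s1 were -0.059, 0.18 and 0.19. With gated cells, Vps13c in CD4/Treg-like cells was at -0.45 and Rab6a in conventional DC-like cells at 0.98, from 11 and 7 and from 2 and 4 UMIs, under the limit of 20. With each library clustered alone, Snx20 in CD4/Treg-like cells was at -0.17. The causes were not tested. Depth limits the small classes most: 107 members were not measured in CD4/Treg-like cells.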
